A study of Mus musculus with 55 samples.

Results

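Corticosterone, the main glucocorticoid of mice, changed many of the same genes in gonadal white fat (goWAT, inside the abdomen) and in subcutaneous white fat (scWAT, under the skin) of mice housed at 22 °C. The question here is where its effect differed between these depots. For each gene the quantity is a difference of effects, namely the log2 fold change of corticosterone over placebo in goWAT minus the same log2 fold change in scWAT. A positive value means that the gene was raised more, or lowered less, in goWAT. The comparison uses 18 of the 55 libraries of the series, chosen by their labels. They are 5 goWAT libraries with corticosterone (goWAT GC), 4 goWAT libraries with placebo (goWAT Ctrl), 5 scWAT libraries with corticosterone (scWAT GC) and 4 scWAT libraries with placebo (scWAT Ctrl). The model behind the p-values was fitted to these together with the goWAT and scWAT libraries at 13 °C, 37 in all.

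All groups compared were male C57BL/6NRj mice, 10 weeks old, kept at 22 °C, and the drinking water carried corticosterone or placebo for 4 weeks. No transgene or deletion is named in the labels. Areas of cryosections were collected by laser capture microdissection, and full-length SMART-Seq2 libraries were made from them, so each library holds RNA from small chosen areas and not from a whole depot. How areas were chosen is not given in the sources used here. The labels do not tie libraries to animals. All p-values thus rest on the spread between libraries, which may be technical, and they are too small if libraries of a group share an animal.

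Glucocorticoids enter cells and bind the glucocorticoid receptor, encoded by Nr3c1, which then acts on DNA as a transcription factor. In fat, the enzyme encoded by Hsd11b1 regenerates active hormone from an inactive form, and the one encoded by Hsd11b2 inactivates it. In adipocytes, glucocorticoids act on fat cell formation, lipid storage and release, hormone secretion and clock genes. In people, long excess of glucocorticoids moves fat towards the abdomen, which is one reason to compare an abdominal depot with a subcutaneous one.

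Total counts per library ran from 12310822 to 47452558 in the 18 libraries. CPM are read counts scaled to the adjusted size of their library. Correlations of log2 CPM between libraries of a group were 0.860 to 0.968 over 32 pairs, and 0 pairs were identical. The mean log2 CPM of 20 white adipocyte markers was 10.43 to 11.38 in goWAT GC, 10.70 to 10.87 in goWAT Ctrl, 9.91 to 10.78 in scWAT GC and 10.42 to 10.68 in scWAT Ctrl, with 0 markers at 0 in any group. For mesothelial cells, which line the abdominal organs, the mean over 12 markers was 1.43 to 3.66 in goWAT GC and 0.70 to 2.92 in goWAT Ctrl, and −2.26 to −1.49 in scWAT GC and −1.64 to −1.16 in scWAT Ctrl. By this mean the depots were apart in the direction of their labels. The summed CPM of the same markers overlapped between depots. It was 158 to 460 in goWAT GC, 84.8 to 177 in goWAT Ctrl, 138 to 268 in scWAT GC and 129 to 583 in scWAT Ctrl. Some libraries stood apart. Library 2 of goWAT GC had the lowest total count and library 4 of goWAT GC the highest share of mitochondrial counts (9.87%), and both had been judged low in quality in an earlier analysis. Libraries 2 and 3 of scWAT GC were rich in macrophage and cell cycle transcripts, library 1 of goWAT GC in brown fat transcripts, and library 5 of goWAT GC in transcripts of the epididymis, the duct beside gonadal fat. Skeletal muscle transcripts were high in library 2 of goWAT GC, library 2 of scWAT GC and library 1 of scWAT Ctrl. In bulk RNA of this kind, fewer cells of a type and less RNA per cell cannot be told apart.

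The depot difference passed edgeR's quasi-likelihood test at a Benjamini-Hochberg adjusted p under 0.05 in 6 of 21142 genes, which is 0.0284% of them, with 3 higher (0.0142%) and 3 lower (0.0142%). Such genes are said to be called. Fance, Zdhhc7, Gpx8 and Tshr meet the rule for named genes, whereas Ackr4 and mt-Tl1 are below its level of 3 log2 CPM and are named after their values were seen. Promoter windows of Fance, Zdhhc7 and Gpx8 are printed because their depot difference was called. That of Mt1, a metallothionein gene known as a direct receptor target, is printed beside them because it holds a letter match to the receptor's binding site. Each window covers 250 bases before and 50 bases after the start in RefSeq GRCm38.p6, read 5′ to 3′ on the strand of the gene. Capitals mark the motif GNACANNNTGTNC, searched on both strands. The windows lie at chr17:28313280-28313579 (plus strand) for Fance, chr8:120101423-120101722 (minus strand) for Zdhhc7, chr13:113046339-113046638 (minus strand) for Gpx8 and chr8:94178839-94179138 (plus strand) for Mt1.
Fance: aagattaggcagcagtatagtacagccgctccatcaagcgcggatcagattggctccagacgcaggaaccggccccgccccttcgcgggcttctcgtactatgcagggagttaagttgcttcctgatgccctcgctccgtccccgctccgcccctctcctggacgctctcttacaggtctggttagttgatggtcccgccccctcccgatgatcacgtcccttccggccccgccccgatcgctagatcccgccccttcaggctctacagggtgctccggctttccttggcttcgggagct
Zdhhc7: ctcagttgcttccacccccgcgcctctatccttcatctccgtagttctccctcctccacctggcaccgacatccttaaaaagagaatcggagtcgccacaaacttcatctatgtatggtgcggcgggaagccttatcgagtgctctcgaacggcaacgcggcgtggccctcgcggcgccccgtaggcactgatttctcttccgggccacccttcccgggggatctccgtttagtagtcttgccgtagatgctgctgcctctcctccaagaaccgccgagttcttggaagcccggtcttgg
Gpx8: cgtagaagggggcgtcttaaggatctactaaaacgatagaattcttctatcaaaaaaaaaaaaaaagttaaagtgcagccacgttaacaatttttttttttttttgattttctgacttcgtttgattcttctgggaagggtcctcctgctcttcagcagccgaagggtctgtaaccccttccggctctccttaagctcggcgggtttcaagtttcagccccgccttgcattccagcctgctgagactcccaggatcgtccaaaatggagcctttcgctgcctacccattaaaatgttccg
Mt1: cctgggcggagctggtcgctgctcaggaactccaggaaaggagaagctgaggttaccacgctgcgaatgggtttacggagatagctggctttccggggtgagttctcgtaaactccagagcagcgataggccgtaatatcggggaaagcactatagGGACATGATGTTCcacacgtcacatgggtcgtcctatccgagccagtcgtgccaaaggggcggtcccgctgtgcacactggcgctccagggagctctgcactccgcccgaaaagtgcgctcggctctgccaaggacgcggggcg
The motif was found in 1 of these windows, that of Mt1, where it begins at position −94 from the start. It occurred in 156 of 32851 windows of this length, or 0.475%. Among 39 named genes with a window, 1 held it, the kinase gene Sgk1. The palindrome CACGTG, the core of the E-box that clock proteins bind, occurred in 2349 windows, or 7.15%, and in those of Fkbp5, Klf15, Per1 and Sgk1. A match is a run of letters and not a measured binding site.

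In goWAT, corticosterone lowered Fance and Zdhhc7, and in scWAT neither passed the test. Fance encodes a subunit of the Fanconi anaemia core complex, which acts in the repair of DNA crosslinks. It had 6.00, 7.52, 4.34, 3.56 and 6.25 CPM in goWAT GC libraries, against 17.0, 18.8, 20.3 and 41.5 CPM in goWAT Ctrl. In scWAT it had 8.39, 8.62, 6.55, 7.30 and 9.98 CPM in GC libraries, against 7.18, 6.88, 8.94 and 7.11 CPM in Ctrl. The goWAT groups did not overlap, as in 8.18% of all genes tested, and the scWAT groups did. The goWAT Ctrl libraries were the only ones above 10 CPM. The log2 fold change was −2.15 ± 0.30 (SE) in goWAT and 0.12 ± 0.29 in scWAT, a difference of −2.26 ± 0.42 (95% interval −3.11 to −1.41, edgeR adjusted p = 0.0446). Fance (ENSMUSG00000007570) lies on the plus strand at chr17:28313519-28326572 in GRCm38 and overlaps the antisense gene CT025652.1 over 1417 bases. SMART-Seq2 marks no strand, so reads from such overlapping genes cannot be told apart, here and for the genes below.

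Zdhhc7 encodes a palmitoyl acyltransferase, an enzyme that attaches a fatty acid to proteins. It had 38.6, 34.7, 25.4, 14.5 and 17.4 CPM in goWAT GC, against 68.4, 54.6, 77.7 and 102 CPM in goWAT Ctrl. In scWAT its values were 30.5, 26.8, 27.9, 33.8 and 24.9 CPM in GC, against 20.7, 25.5, 29.8 and 30.9 CPM in Ctrl. As with Fance, the goWAT groups did not overlap and goWAT Ctrl stood above the other 3 groups. The log2 fold change was −1.54 ± 0.23 in goWAT and 0.11 ± 0.23 in scWAT, and the difference was −1.64 ± 0.32 (95% interval −2.29 to −0.99, edgeR adjusted p = 0.0446). Zdhhc7 (ENSMUSG00000031823) lies on the minus strand at chr8:120080890-120101482 and overlaps no other gene of the annotation.

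Gpx8 and Tshr changed in scWAT and did not pass the test in goWAT. Gpx8 encodes a peroxidase of the endoplasmic reticulum, the compartment where secreted proteins such as collagens fold. It had 29.0, 19.7, 21.6, 36.7 and 49.5 CPM in goWAT GC, against 33.9, 30.9, 29.8 and 36.5 CPM in goWAT Ctrl. The scWAT values were 67.1, 63.2, 39.5, 77.1 and 58.9 CPM in GC, against 345, 501, 186 and 233 CPM in Ctrl. The scWAT Ctrl libraries were above every other library, the scWAT groups did not overlap (true of 7.87% of all genes tested), and the goWAT groups did. Its log2 fold change was −0.06 ± 0.31 in goWAT and −2.37 ± 0.32 in scWAT, a difference of 2.31 ± 0.45 (95% interval 1.39 to 3.22, edgeR adjusted p = 0.0446). Gpx8 (ENSMUSG00000021760) lies on the minus strand at chr13:113042753-113046410, and Cdc20b spans all 3658 of its bases on the other strand.

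Tshr encodes the thyrotropin receptor, through which the pituitary hormone thyrotropin acts on the thyroid and also on fat cells. In goWAT its values were 184, 157, 227, 149 and 174 CPM in GC, against 136, 226, 179.5 and 156 CPM in Ctrl. In scWAT its values were 245, 136, 129, 136 and 157 CPM in GC, against 48.8, 59.5, 58.2 and 45.2 CPM in Ctrl. Here the scWAT Ctrl libraries were the low group, and the scWAT GC libraries, at 129 to 245 CPM, overlapped the goWAT libraries. The log2 fold change was 0.03 ± 0.22 in goWAT and 1.60 ± 0.23 in scWAT, and the difference was −1.57 ± 0.31 (95% interval −2.20 to −0.94, edgeR adjusted p = 0.0464). Tshr (ENSMUSG00000020963) lies on the plus strand at chr12:91384563-91549808 and overlaps the processed pseudogene Gm18827 over 790 bases.

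Ackr4 encodes an atypical chemokine receptor, which takes up chemokines without signalling to the cell, and its effects ran in opposite directions. It was detected at low counts, with 10, 22, 48, 37 and 88 counts in goWAT GC, against 14, 8, 6 and 8 counts in goWAT Ctrl. Its scWAT libraries held 2, 0, 0, 1 and 3 counts in GC, against 4, 0, 5 and 16 counts in Ctrl. Scaled to depth, the goWAT GC libraries held 0.566 to 2.76 CPM and the goWAT Ctrl libraries 0.157 to 0.333 CPM, without overlap, whereas the scWAT groups overlapped. The log2 fold change was 2.96 ± 0.69 in goWAT (edgeR adjusted p = 0.00637) and −2.76 ± 0.75 in scWAT (edgeR adjusted p = 0.0183). The difference was 5.73 ± 1.02 (95% interval 3.66 to 7.79, edgeR adjusted p = 0.0446). Ackr4 (ENSMUSG00000079355) lies on the minus strand at chr9:104084157-104126933, wholly within the span of Acad11 on the other strand.

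The remaining call, mt-Tl1, is a mitochondrial transfer RNA gene for leucine. It had 2.89, 3.63, 2.28, 5.44 and 2.83 CPM in goWAT GC, against 0.594, 0.237, 0.731 and 0.213 CPM in goWAT Ctrl. In subcutaneous fat it had 2.19, 1.95, 3.17, 3.10 and 3.17 CPM in GC, against 1.86, 5.80, 2.09 and 4.52 CPM in Ctrl. The goWAT Ctrl libraries were the low group and the scWAT groups overlapped. Its log2 fold change was 2.93 ± 0.50 in goWAT and −0.39 ± 0.44 in scWAT, and the difference was 3.32 ± 0.65 (95% interval 2.00 to 4.64, edgeR adjusted p = 0.0446). The gene covers positions 2676 to 2750 of the mitochondrial genome, with 0 bases between it and mt-Rnr2 on one side and mt-Nd1 on the other, so its reads cannot be told apart from those of a longer precursor.

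**Figure D1:**
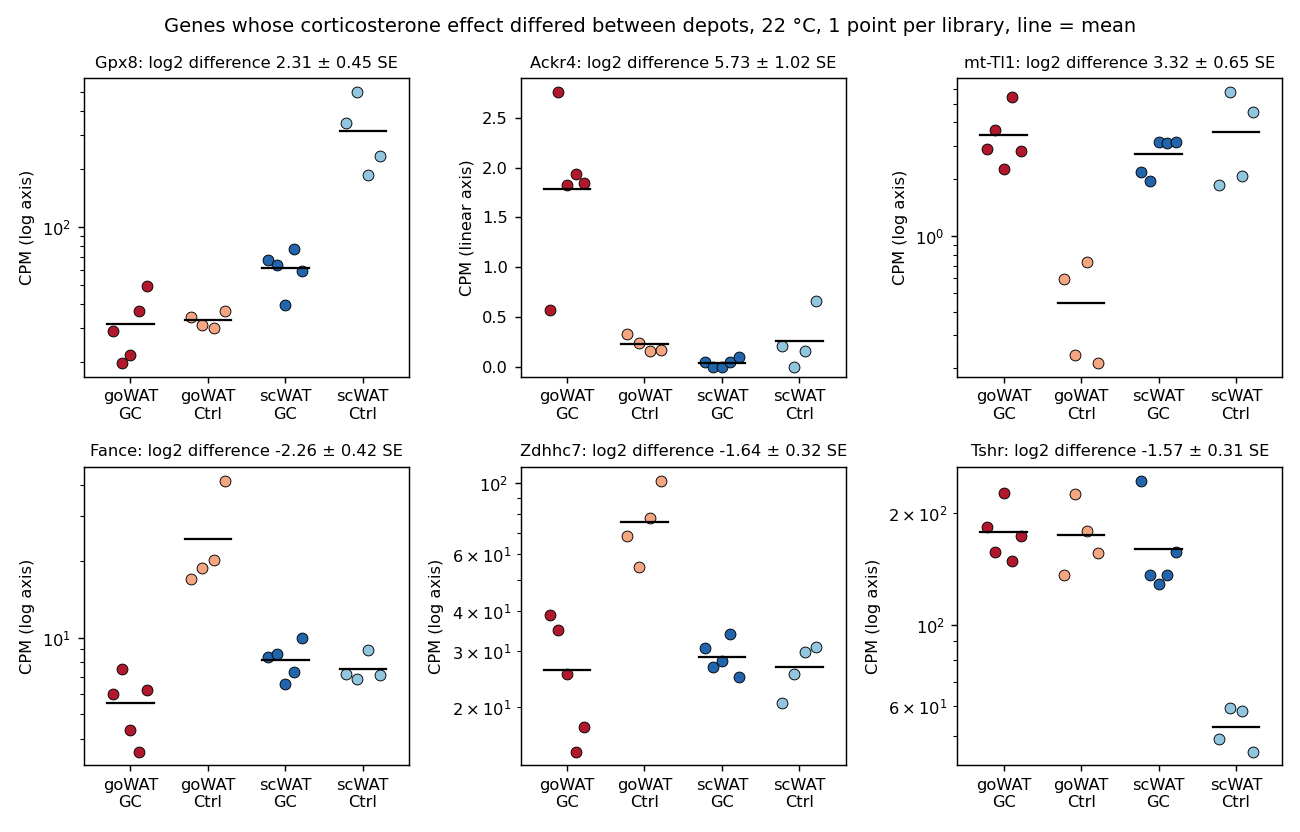
CPM in each of the 18 libraries, 1 panel for each of the 6 genes whose depot difference was called, with the groups along the horizontal axis and CPM on a log axis (linear for Ackr4). Lines are group means. Fance and Zdhhc7 are high in goWAT Ctrl, Gpx8 is high and Tshr low in scWAT Ctrl, mt-Tl1 is low in goWAT Ctrl and Ackr4 is high in goWAT GC.

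In 5 of the 6 genes it was a placebo group that stood apart, so the depots lay closer together with corticosterone than with placebo. The goWAT minus scWAT log2 difference in level was −0.57 with corticosterone and 1.69 with placebo for Fance, and −0.14 and 1.50 for Zdhhc7. For Gpx8 it was −0.96 with corticosterone and −3.27 with placebo, and for Tshr 0.15 and 1.72. For mt-Tl1 it was 0.33 with corticosterone and −2.99 with placebo. Ackr4 was the exception, at 5.52 with corticosterone and −0.21 with placebo. These are the same 4 group means arranged by depot and add no further evidence.

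The 6 calls lay close to the threshold. With the 22 °C libraries alone in the fit, 0 genes were called (smallest edgeR adjusted p = 0.146). Without library 3 or 4 of goWAT Ctrl, 3 or 5 of goWAT GC, 1 or 4 of scWAT Ctrl, or 1 or 2 of scWAT GC, 0 genes were called, against 19 without library 4 of scWAT GC. Without libraries 2 and 4 of goWAT GC together, 1 gene was called, which is not among the 6. The 18 fits that left out 1 library each called Ackr4 in 9, Fance in 7, Gpx8 and Zdhhc7 in 4 each, mt-Tl1 in 3 and Tshr in 2, and the sign of each difference was kept in every fit that tested it.

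Most of what corticosterone did in one depot ran the same way in the other. In goWAT 1386 of 21142 genes were called (6.56%), 723 higher (3.42%) and 663 lower (3.14%). Without libraries 2 and 4 of goWAT GC, 632 were called. In scWAT 1705 were called (8.06%), 1007 higher (4.76%) and 698 lower (3.30%), against 762 called without libraries 2 and 3 of scWAT GC. With libraries scaled by total count alone, the split was 410 higher and 846 lower in goWAT and 1552 higher and 424 lower in scWAT, and the 14 depot differences then called were 1 higher and 13 lower. Genes called in both numbered 483, which is 34.8% of the goWAT calls and 28.3% of the scWAT calls. Of these, 274 were higher in both, 207 lower in both and 2 went in opposite directions. The pair with opposite directions was Ackr4 and mt-Co1, named after their values were seen. Of the goWAT calls, 1216 (87.7%) had the same sign in scWAT, and of the scWAT calls 1457 (85.5%) had the same sign in goWAT, against 62.9% of all genes tested. The depots share no libraries, although they may share animals. Over 9091 genes of at least 3 log2 CPM, the effects in both depots had a Pearson r of 0.57, and over all genes tested one of 0.28. Both values are descriptions across genes that are not independent.

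**Figure D2:**
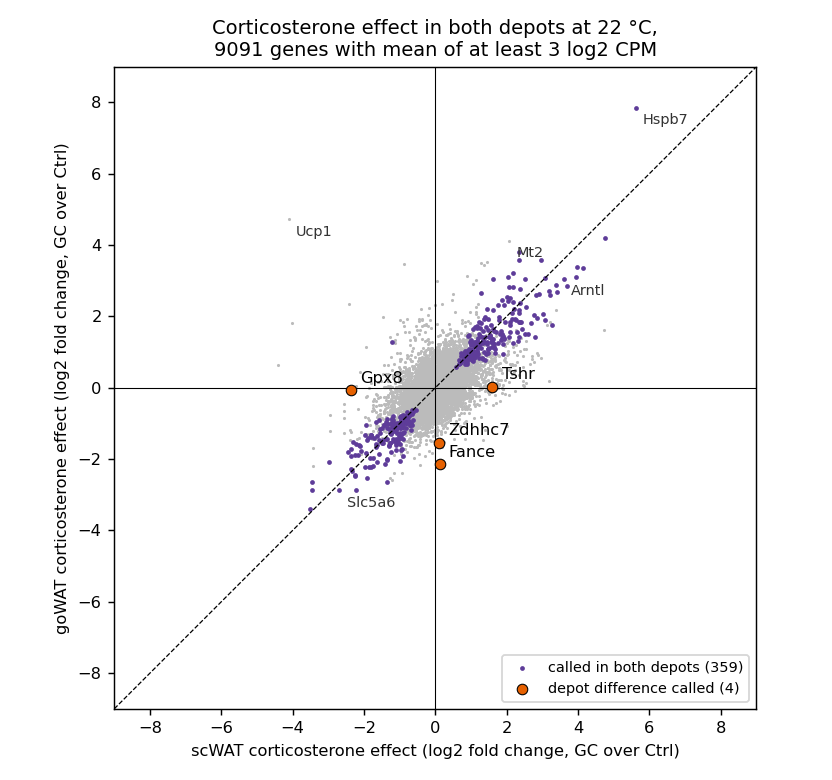
The log2 fold change of GC over Ctrl in goWAT (vertical axis) and in scWAT (horizontal axis) for the 9091 genes that averaged 3 log2 CPM or more. The 359 genes called in both depots lie in the upper right and lower left, except mt-Co1, and the 4 genes of this level with a called depot difference lie near one axis or the other.

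Being called in a single depot did not go with a called difference in most cases. Of 903 genes called in goWAT and not in scWAT, 3 had a called difference and 398 had a difference at an unadjusted p under 0.05. Of 1222 genes called in scWAT and not in goWAT, 2 had a called difference and 551 had one at an unadjusted p under 0.05. Over all genes, 2542 differences were under an unadjusted 0.05, of which 1151 were higher (5.44% of the genes tested) and 1391 lower (6.58%). The median 95% interval reached 0.92 log2 units to either side among genes called in both, and 1.22 over all genes. The whole interval lay within 1 log2 unit of equal effects in 148 of the 483 genes called in both. The median difference was −0.07 among the genes higher in both and −0.05 among those lower in both.

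The genes called most firmly in both depots are described next, and their differences ran from −0.79 to 0.81. Npr3, the clearance receptor for natriuretic peptides, had 458, 1474, 538, 716 and 466 CPM in goWAT GC, against 152, 78.5, 50.6 and 65.9 CPM in goWAT Ctrl. For scWAT the values were 403, 251, 713, 692 and 682 CPM in GC, against 38.7, 67.9, 67.3 and 84.1 CPM in Ctrl. No GC library overlapped a Ctrl library in either depot, with log2 fold changes of 3.07 in goWAT and 3.09 in scWAT and a difference of −0.01 (95% interval −1.10 to 1.07). Slc5a6, a transporter of the vitamins biotin and pantothenate, had 13.6 to 25.8 CPM in goWAT GC, against 96.8 to 175 CPM in goWAT Ctrl. In scWAT it had 8.35 to 21.3 CPM in GC, against 76.5 to 109 CPM in Ctrl. Its log2 fold changes were −2.88 in goWAT and −2.69 in scWAT, and the difference was −0.19 (95% interval −0.92 to 0.53).

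Prrg3, a membrane protein gene, rose by 3.35 log2 units in goWAT and 4.14 in scWAT, a difference of −0.79 (95% interval −1.65 to 0.06). Vim, which encodes the cytoskeletal protein vimentin, rose by 2.18 in goWAT and 2.34 in scWAT (difference −0.16, 95% interval −0.89 to 0.58). The matrix protease gene Adamts5 rose by 2.59 and 3.21 in goWAT and scWAT, and the protease inhibitor gene Timp4 by 2.69 and 3.42. Among the genes that fell, the REV-ERB family gene Nr1d2 had log2 fold changes of −2.85 in goWAT and −2.22 in scWAT, the kinase gene Sgk1 −2.22 and −1.96, and the proprotein convertase gene Pcsk4 −2.64 and −3.45. H2-Q7, a non-classical class I histocompatibility gene, had −1.98 in goWAT and −1.84 in scWAT, and the sialyltransferase gene St3gal4 −1.86 and −1.57. H2-Q7 belongs to a family of near-identical genes, so its reads are uncertain. None of these 11 genes had a depot difference with an edgeR adjusted p below 0.459, that of Prrg3, which does not show that their effects are equal.

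**Figure D3:**
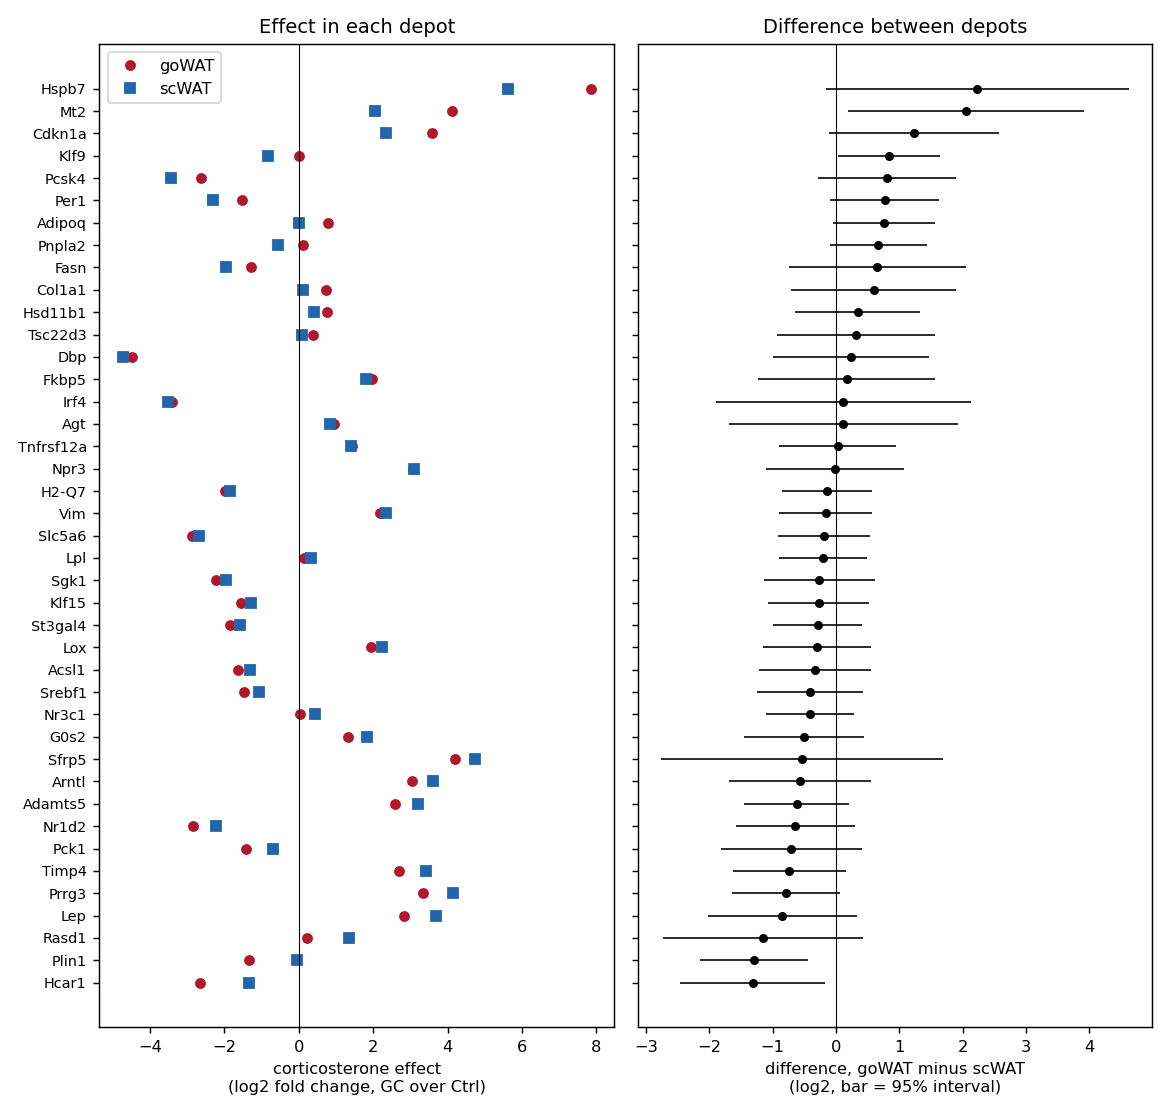
Left, the log2 fold change of GC over Ctrl in goWAT and in scWAT for 41 named genes. Right, the goWAT minus scWAT difference with its 95% interval, which lies clear of 0 for Mt2, Klf9, Plin1 and Hcar1 and crosses it for the others drawn. None of these differences was called.

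Receptor targets changed in both directions in both depots, and no gene of any list described from here on had a called depot difference. The list holds 23 genes known as induced targets of the glucocorticoid receptor. Of them 5 were called higher and 6 lower in goWAT, and 4 higher and 6 lower in scWAT. They thus did not rise as a set in either depot. Over all genes tested, 3.42% were called higher and 3.14% lower in goWAT, and 4.76% and 3.30% in scWAT. Each list count below stands against these shares. The median difference of the 23 targets was −0.07, against −0.03 over all genes tested. Scaling by total count alone put the median over all genes at −0.37, so a positive list median nearer to 0 than this may turn negative with that scaling. With size factors by median ratio the median over all genes was 0.007, a smaller move the other way. Fkbp5, which encodes a chaperone that dampens the receptor, had 119, 183, 175, 218 and 153 CPM in goWAT GC, against 38.2, 35.4, 64.8 and 34.7 CPM in goWAT Ctrl. The scWAT values were 126, 67.1, 135, 295 and 160.1 CPM in GC, against 50.1, 42.6, 61.9 and 25.7 CPM in Ctrl. The GC libraries lay above the Ctrl libraries in both depots, and the difference of effects was 0.17 (95% interval −1.22 to 1.57).

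The metallothionein genes Mt1 and Mt2, which encode metal-binding proteins, had larger fold changes in goWAT, without passing the test of the difference. Mt1 had 1151, 4951, 2329, 3387 and 2197 CPM in goWAT GC, against 314, 251, 226 and 239.7 CPM in goWAT Ctrl. Its scWAT libraries held 1106, 964.5, 1900, 2636 and 1455 CPM in GC, against 728, 572, 688 and 494 CPM in Ctrl. The GC libraries were the higher ones in both depots without overlap, and goWAT Ctrl was the lowest group. The log2 fold change was 3.44 in goWAT, which was called, and 1.38 in scWAT, which was not (edgeR adjusted p = 0.0604). The difference was 2.07 ± 0.64 (95% interval 0.77 to 3.36), and it did not pass the test (edgeR adjusted p = 0.187). Mt2 gave 4.12 in goWAT and 2.06 in scWAT, with a difference of 2.06 (95% interval 0.20 to 3.92, edgeR adjusted p = 0.362). Klf9, a transcription factor gene induced by glucocorticoids in many tissues, had log2 fold changes of 0.01 and −0.83 in goWAT and scWAT, and Tsc22d3, which encodes the leucine zipper protein GILZ, 0.39 and 0.08, none of them called.

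Of the genes for hormone receptors, hormone activation and receptor partners, 1 of 16 was called higher and 2 lower in goWAT, and 0 higher and 2 lower in scWAT, with a median difference of 0.16. With so few genes, these counts are not far from the shares over all genes. The receptor gene Nr3c1 did not pass the test in either depot, with a difference of −0.40 (95% interval −1.10 to 0.29). Hsd11b1 had 367 to 643 CPM in goWAT GC and 228 to 326 CPM in goWAT Ctrl, and 713 to 1650 CPM in scWAT GC and 624 to 1035 CPM in scWAT Ctrl. Its log2 fold changes were 0.75 in goWAT and 0.40 in scWAT, neither called, and the difference was 0.35 (95% interval −0.64 to 1.33). Hsd11b2 was at the edge of detection. It had 0.889 to 1.87 CPM in goWAT GC and 0.190 to 1.93 CPM in goWAT Ctrl, and 0.0456 to 1.48 CPM in scWAT GC and 0.123 to 4.59 CPM in scWAT Ctrl, and its difference of 3.10 did not pass the test (edgeR adjusted p = 0.245). Ncoa3, which encodes a coactivator of nuclear receptors, fell in goWAT (log2 fold change −1.23) and did not pass the test in scWAT (0.27), and the difference of −1.51 was not called (edgeR adjusted p = 0.159).

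Clock genes responded in both depots. Of 20 clock genes, 3 were called higher and 8 lower in goWAT, and 3 higher and 11 lower in scWAT, with a median difference of 0.15. Dbp, a transcription factor gene of the clock's output, had 0.399 to 3.35 CPM in goWAT GC, against 28.3 to 50.2 CPM in goWAT Ctrl. In subcutaneous fat it had 0.188 to 1.66 CPM in GC, against 18.6 to 29.2 CPM in Ctrl. Its log2 fold changes were −4.49 in goWAT and −4.73 in scWAT, with a difference of 0.24 ± 0.61. Arntl, which encodes the activator BMAL1, rose by 3.05 in goWAT and 3.61 in scWAT, whereas Per1, a repressor gene that the receptor can also induce, had log2 fold changes of −1.53 and −2.30. Nr1d1, which encodes the repressor REV-ERB alpha, had −2.06 in goWAT and −0.99 in scWAT, a difference of −1.07 that was not called (edgeR adjusted p = 0.242). The time of day of collection is not given in the sources used here, and its part in these values was not tested.

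Of 22 hormone and secreted factor genes, 6 were called higher and 2 lower in goWAT, and 7 higher and 2 lower in scWAT. Their differences ran from −2.41 to 2.77, with a median of −0.25. Lep, which encodes leptin, had 1390 to 4026 CPM in goWAT GC, against 261 to 389 CPM in goWAT Ctrl. For scWAT the values were 739.5 to 2464 CPM in GC, against 105 to 191 CPM in Ctrl. No GC library overlapped a Ctrl library in either depot, and the log2 fold changes of 2.84 and 3.69 differed by −0.85 (95% interval −2.03 to 0.33). Sfrp5, which encodes a secreted WNT inhibitor, rose by 4.21 in goWAT and 4.74 in scWAT. Adipoq, the adiponectin gene, had log2 fold changes of 0.78 and 0.02, and Agt, which encodes angiotensinogen, 0.95 and 0.83, none called. Retn, which encodes resistin, rose in goWAT (log2 fold change 1.31) and had −0.30 in scWAT, and the difference of 1.62 was not called (edgeR adjusted p = 0.239).

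Genes of protein folding rose in both depots where they were called. Hspb7, a small heat shock protein gene, had 269, 541, 695, 279.9 and 215 CPM in goWAT GC, against 1.85, 1.89, 1.98 and 1.22 CPM in goWAT Ctrl. In scWAT it had 103, 31.7, 88.6, 32.9 and 18.9 CPM in GC, against 3.41, 0.966, 0.218 and 0.0822 CPM in Ctrl. Every GC library was above every Ctrl library, with log2 fold changes of 7.85 in goWAT and 5.62 in scWAT and a difference of 2.23 (95% interval −0.16 to 4.63). Of 19 heat shock and folding genes, 7 were called higher in goWAT and 5 in scWAT, with 0 lower in either and a median difference of 0.37. Cdkn1a, which encodes the cell cycle inhibitor p21, rose by 3.59 in goWAT and 2.35 in scWAT, a difference of 1.23 (95% interval −0.11 to 2.58). Of 17 growth arrest and p53 target genes, 1 was called in goWAT and 2 in scWAT, all higher, with a median difference of 0.08. Over all genes, 6.56% were called in goWAT and 8.06% in scWAT, so the growth arrest and p53 counts are near the background.

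Genes of fatty acid synthesis fell in both depots where they were called. Of 21 lipogenesis genes, 4 were called lower in goWAT and 10 in scWAT, 0 were called higher, and the median difference was 0.57. Fasn, the fatty acid synthase gene, had 1767 to 7940 CPM in goWAT GC, against 8260 to 11490 CPM in goWAT Ctrl. The scWAT values were 1168 to 6303 CPM in GC, against 11730 to 17250 CPM in Ctrl. The groups did not overlap in either depot, yet the fall was called in scWAT (log2 fold change −1.95, edgeR adjusted p = 0.0111) and not in goWAT (−1.30, edgeR adjusted p = 0.104), and the difference of 0.65 was not called (95% interval −0.75 to 2.06). Srebf1, which encodes the transcription factor SREBP1, fell in both, with −1.46 in goWAT and −1.05 in scWAT. Without library 1 of goWAT GC and libraries 2 and 3 of scWAT GC together, the median difference of the lipogenesis genes was 0.03.

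Among 29 genes of lipolysis and the lipid droplet, 3 were called higher and 6 lower in goWAT, and 3 higher and 3 lower in scWAT, with a median difference of 0.09. Plin1, which encodes perilipin 1, the coat protein that guards the droplet, had 490, 415, 260.3, 459 and 260.3 CPM in goWAT GC, against 806, 749.8, 964 and 1302 CPM in goWAT Ctrl. Its scWAT libraries held 307, 193, 326, 656 and 729 CPM in GC, against 573, 457, 367 and 436 CPM in Ctrl. The groups overlapped in scWAT and did not in goWAT. The log2 fold changes were −1.34 and −0.05, and the difference of −1.29 ± 0.42 (95% interval −2.14 to −0.44) did not pass the test (edgeR adjusted p = 0.201). Hcar1, which encodes a lactate receptor that restrains lipolysis, fell in both depots, with log2 fold changes of −2.66 in goWAT and −1.34 in scWAT and a difference of −1.31 (95% interval −2.45 to −0.17, edgeR adjusted p = 0.335). G0s2, whose protein inhibits the lipase ATGL, had called rises of 1.33 in goWAT and 1.84 in scWAT, and Pnpla2, the gene of that lipase, had 0.11 and −0.56, neither called.

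For uptake of fatty acids and triglyceride synthesis, 8 of 25 genes were called lower in goWAT and 7 in scWAT, with 0 higher and a median difference of 0.02. Acsl1, which encodes an enzyme that activates fatty acids, fell by 1.63 on the log2 scale in goWAT and by 1.30 in scWAT. Lpl, which encodes lipoprotein lipase, had 0.14 and 0.34, and Pck1, a gene of glycerol synthesis in fat, had −1.40 in goWAT, which was called, and −0.70 in scWAT, which was not. Fabp4, a fatty acid binding protein gene, had log2 fold changes of 1.33 and −0.57, neither called, and a difference of 1.90 (edgeR adjusted p = 0.189). Of 21 genes of fatty acid oxidation, 0 were called higher and 1 lower in goWAT, and 1 higher and 11 lower in scWAT, with a median difference of 0.52. It was 0.04 without library 1 of goWAT GC and libraries 2 and 3 of scWAT GC.

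Genes of the mitochondrial genome leaned upwards in goWAT and downwards in scWAT. All 13 of its protein-coding genes had a positive difference at an unadjusted p under 0.05, with a median of 2.31, against 1151 genes (5.44%) of all those tested on that side, and none was called (smallest edgeR adjusted p = 0.0924, that of mt-Co1). In goWAT 9 of the 13 were called higher and 0 lower, and in scWAT 0 higher and 2 lower. mt-Co1, a subunit gene of cytochrome c oxidase, had 15130, 27010, 9204, 8912 and 8057 CPM in goWAT GC, against 8262, 3671, 6373 and 4143 CPM in goWAT Ctrl. In subcutaneous fat it had 4040, 3776, 5566, 8686 and 4236 CPM in GC, against 7417, 14800, 9095 and 17090 CPM in Ctrl. Values leaned upwards with corticosterone in goWAT and downwards in scWAT, and the groups overlapped in both depots. The log2 fold changes were 1.28 in goWAT (edgeR adjusted p = 0.0417) and −1.20 in scWAT (edgeR adjusted p = 0.0435), and the difference was 2.49 ± 0.55 (95% interval 1.38 to 3.59).

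mt-Cytb, the cytochrome b gene, had a difference of 2.49, mt-Atp8, an ATP synthase subunit gene, 2.71, and mt-Nd1, a complex I subunit gene, 2.31. Such transcripts come from one shared precursor on each strand, so they are not separate pieces of evidence. Counts of mitochondrial genes made up 6.77 ± 2.00% of a library in goWAT GC, 3.00 ± 1.21% in goWAT Ctrl, 4.80 ± 2.00% in scWAT GC and 7.25 ± 1.60% in scWAT Ctrl (SD, n = 5, 4, 5 and 4). Depth moved the other way, with mean total counts of 23830800 in goWAT GC, 39683500 in goWAT Ctrl, 32412800 in scWAT GC and 23937500 in scWAT Ctrl. The part of depth or RNA quality in the mitochondrial result was not tested. Without libraries 2 and 4 of goWAT GC, the median difference of the 13 genes was 1.82. DESeq2 called 8 of the 13 differences and limma with voom 2.

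Nuclear genes of oxidative phosphorylation leaned downwards in scWAT, with a median effect of −0.85 and 0 of 30 positive, whereas in goWAT the median was −0.01 and 15 were positive. All 30 had a positive difference (27 with scaling by total count alone), with a median of 0.77. Of the 30, 13 were under an unadjusted p of 0.05, against 5.44% of all genes tested on that side. In goWAT 0 of the 30 were called in either direction, and in scWAT 8 were called lower and 0 higher. Cox5a, a subunit gene of cytochrome c oxidase, had 138 to 381 CPM in goWAT GC and 195 to 350.1 CPM in goWAT Ctrl, and 92.2 to 370 CPM in scWAT GC and 378 to 878 CPM in scWAT Ctrl. It was the scWAT groups that were apart, with log2 fold changes of 0.01 in goWAT and −1.39 in scWAT (difference 1.40, edgeR adjusted p = 0.198). Mpc2, which encodes a subunit of the mitochondrial pyruvate carrier, had the same shape, with 365 to 1129 CPM in goWAT GC and 579 to 906 CPM in goWAT Ctrl, and 302 to 952 CPM in scWAT GC and 1384 to 2168 CPM in scWAT Ctrl. Its difference was 1.76 ± 0.43 (edgeR adjusted p = 0.133).

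Brown and beige fat genes had the largest median difference of the 33 lists, and it rested on few libraries. Of 17 tested genes of 19 listed, 15 had a positive difference, and the median was 5.46. Of these 15, 12 were under an unadjusted p of 0.05, against 5.44% of all genes tested on that side. In goWAT 0 of the 17 were called, and in scWAT 6 were called lower and 0 higher. Ucp1, which encodes the uncoupling protein that makes heat, had 472, 0.376, 4.34, 13.4 and 2.77 CPM in goWAT GC, against 1.54, 4.59, 5.27 and 3.61 CPM in goWAT Ctrl. For scWAT the values were 5.20, 2.93, 18.9, 2.23 and 7.09 CPM in GC, against 15.4, 322, 12.1 and 154 CPM in Ctrl. One goWAT GC library and a pair of scWAT Ctrl libraries held nearly all of it. Neither depot's effect was called (edgeR adjusted p = 0.124 in goWAT and 0.129 in scWAT), nor was the difference of 8.83 ± 2.50 (edgeR adjusted p = 0.173).

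Dio2, which encodes the enzyme that activates thyroid hormone, followed the same libraries, with 0.189 to 26.2 CPM in goWAT GC and 0.256 to 0.473 CPM in goWAT Ctrl, and 0.126 to 0.638 CPM in scWAT GC and 0.872 to 65.6 CPM in scWAT Ctrl. In scWAT its fall was called (log2 fold change −6.02, edgeR adjusted p = 0.0153), and the difference was not (edgeR adjusted p = 0.107). The summed level of the 19 genes was 84.2 to 1599 CPM in goWAT GC and 183 to 258 CPM in goWAT Ctrl, and 137 to 370.2 CPM in scWAT GC and 879 to 3656 CPM in scWAT Ctrl, with Ckmt2 at 0 in goWAT Ctrl. Without library 1 of goWAT GC, the median difference was 2.85 and the median goWAT effect −0.34, against 1.81 with it, so in goWAT the direction rests on that library. The median scWAT effect was −3.31 with it and −3.35 without it. The scWAT Ctrl libraries that were rich in these genes were also rich in mitochondrial ones, and the part of this in the mitochondrial difference was not tested.

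**Figure D4:**
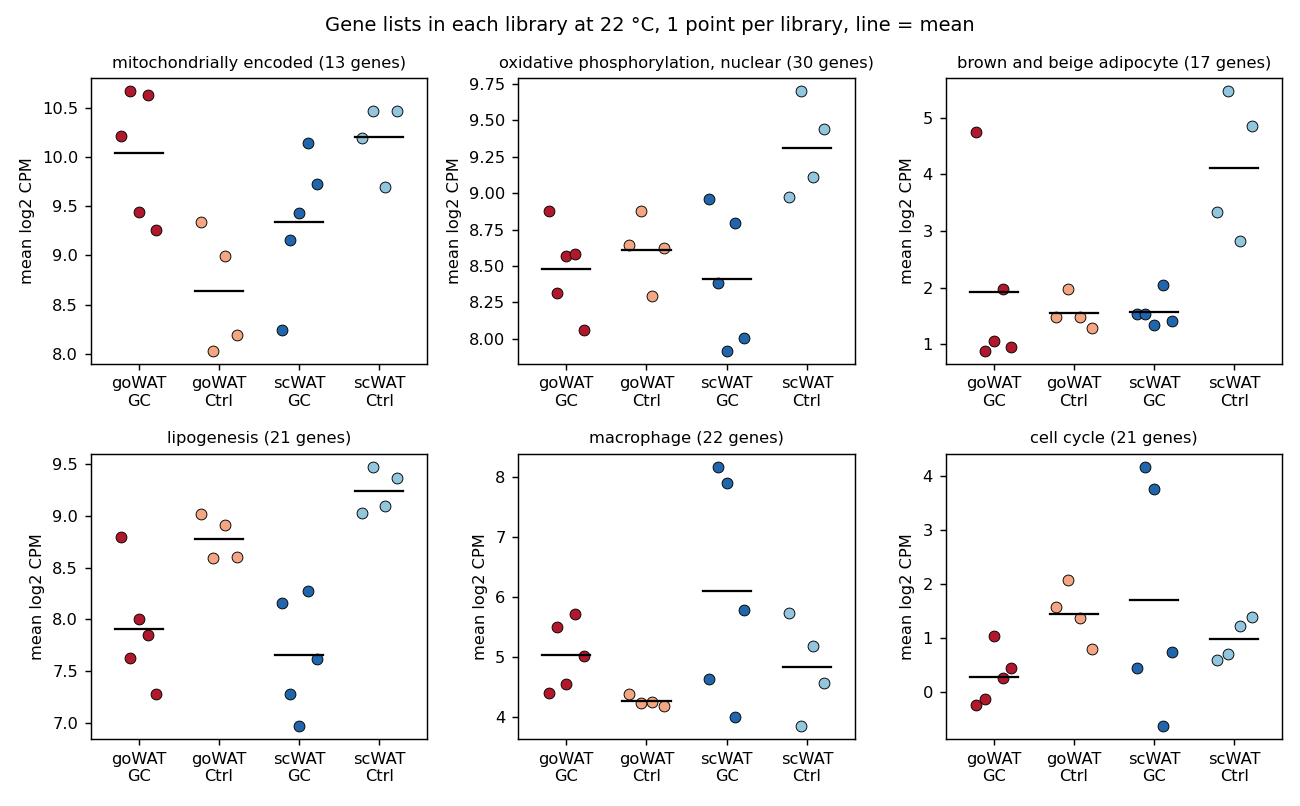
Mean log2 CPM of 6 gene lists in each of the 18 libraries, with groups ordered goWAT GC, goWAT Ctrl, scWAT GC and scWAT Ctrl. Mitochondrially encoded genes are lowest in goWAT Ctrl, brown and beige genes are high in scWAT Ctrl and in library 1 of goWAT GC, and macrophage and cell cycle genes are high in libraries 2 and 3 of scWAT GC.

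Macrophage and cell cycle genes leaned towards scWAT, and both were high in the same pair of scWAT GC libraries. Of 22 macrophage markers, 2 were called higher in goWAT and 10 in scWAT, 0 lower, and the median difference was −1.12. Their summed level was 1493 to 3262 CPM in goWAT GC and 1102 to 1445 CPM in goWAT Ctrl, and 1222 to 17830 CPM in scWAT GC and 909.8 to 2313 CPM in scWAT Ctrl, with 0 markers at 0. Adgre1, which encodes the macrophage surface protein F4/80, had 16.5, 306, 284, 11.3 and 46.1 CPM in scWAT GC, and no library of another group was above 33.8 CPM. Without libraries 2 and 3 of scWAT GC, the median difference was 0.71 and the median scWAT effect 0.07, against 1.70 with them, so the direction of the difference turned. Of 21 cell cycle genes, 0 were called in goWAT and 3 were called higher in scWAT. A negative difference at an unadjusted p under 0.05 was seen in 16 of them, against 6.58% of all genes tested. The median difference of the 21 genes was −3.21, and −0.21 without these libraries. The scWAT effect then had a median of −1.08, against 1.79 with them.

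Of 40 matrix genes, 10 were called higher and 1 lower in goWAT, and 10 higher and 2 lower in scWAT, with a median difference of 0.04. Lox, which encodes the enzyme that crosslinks collagen, rose by 1.93 in goWAT and 2.23 in scWAT, and Sparc, a matrix protein gene, by 1.92 and 1.35. Col1a1, a collagen gene, had 0.72 and 0.13, neither called. Among 26 genes of TGF-beta signalling and contraction, 3 were called higher in each depot and 0 lower, with a median difference of 0.00. Markers of progenitors and fibroblasts gave 1 of 16 called higher in each depot, which is near the shares over all genes, and a median difference of −0.11.

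For the other lists, median differences were 0.29 for 34 genes of insulin signalling and glucose use, 0.24 for 24 of cholesterol synthesis, 0.10 for 20 of branched-chain amino acid breakdown and 0.08 for 23 of the ATF4 response. They were 0.20 for 19 adipogenic transcription factors, −0.04 for 23 depot developmental genes and 0.09 for the 20 white adipocyte markers. For other cell types they were −0.29 for 18 lymphocyte genes, −0.44 for 16 endothelial genes and 0.77 for 13 keratin and epithelial genes. MHC class II genes, with which immune cells present antigen, had a median of −1.03 over 10 genes, of which 3 were called lower in goWAT and 0 in scWAT, and 0.05 without libraries 2 and 3 of scWAT GC. Skeletal muscle genes (18) had a median of 1.56 and epididymis genes (4 tested of 12) one of 1.96, with 0 called in either depot. With 1 library left out, the skeletal muscle median ran from −2.32 to 6.95 and the epididymis median from −0.89 to 5.71. Neither direction thus held without single libraries. Of 12 mesothelial markers, 4 had a positive difference at an unadjusted p under 0.05, against 5.44% of all genes on that side, and the median was 1.41, or 0.74 to 1.72 with 1 library left out. One was called in goWAT, higher, and 0 in scWAT. Igfbp5, an insulin-like growth factor binding protein gene, had the smallest adjusted p of them, with a difference of 1.84 (edgeR adjusted p = 0.174). The 8 erythrocyte genes had a median of 0.999, or 0.61 to 1.36 with 1 library left out, with 7 of 8 positive and 0 under an unadjusted p of 0.05. None of them was called in either depot. Over all lists together, 622 genes had a median difference of 0.20. At an unadjusted p under 0.05, 67 of the 622 were higher and 36 lower, against 5.44% and 6.58% of all genes tested. The lower count is near that share.

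**Figure D5:**
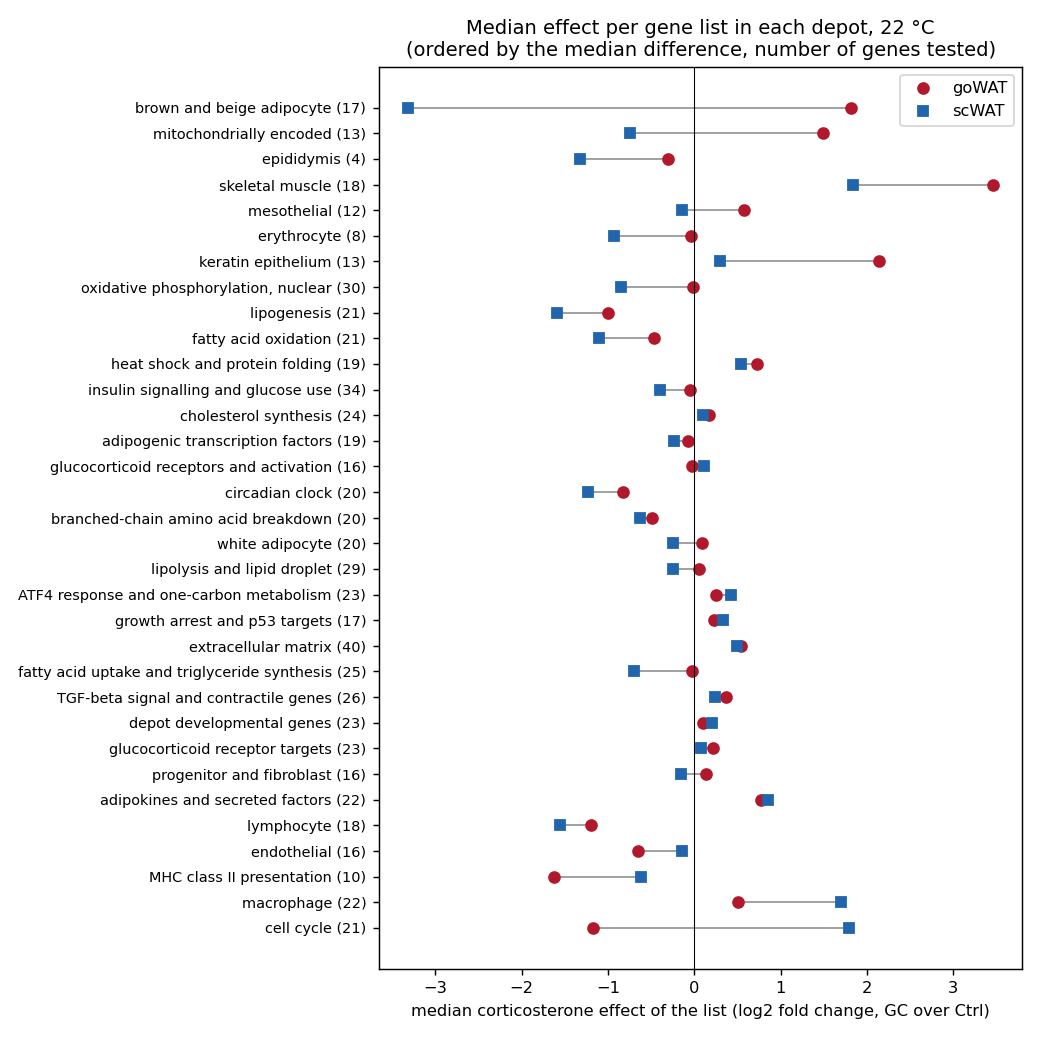
Median log2 fold change of GC over Ctrl in goWAT and in scWAT for 33 gene lists. The mitochondrially encoded and the brown and beige lists lie higher in goWAT, and the cell cycle and macrophage lists lie higher in scWAT with all libraries included.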

How the data were processed

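RNA was sequenced from laser-captured areas of fat, and the values used are raw read counts per gene, which the authors deposited as 1 table per depot with 31933 genes. The tools named in the submitters' processing notes are FastQC, GSNAP and featureCounts 1.6.3, with the mm10 build. The strand setting is not given in the sources used here. The goWAT and scWAT tables were joined on gene ID, and symbols and positions came from GENCODE M21 on GRCm38, with 31894 IDs matched. Columns left unused numbered 0.

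Genes were kept by filterByExpr (minimum count 10, minimum total 15), which left 21142. One model of 8 group means was fitted to the 37 libraries of both depots at 22 °C and 13 °C with edgeR 4.0.16 in R 4.3.3 (TMM scaling, robust quasi-likelihood test), and p-values were adjusted over all genes by Benjamini-Hochberg with a threshold of 0.05. The biological coefficient of variation was 50.9%. Standard errors were derived from the F statistic. Depths are given with the results, and CPM are counts scaled to TMM-adjusted library sizes.

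The comparison, its 33 lists of genes and the rule for names were chosen with earlier results of these data known. The rule took up to 12 called differences in each direction with at least 3 log2 CPM and no overlap in at least 1 depot, the 6 genes in each direction called most firmly in both depots (1 of them is not reported here), up to 6 members of each list for their role, and a fixed set of genes of interest that includes Fkbp5, Lep and Ucp1. Alternatives were DESeq2 1.42.0, limma 3.58.1 with voom, other scalings and filters, other sets of libraries and replicate blocks. On simulated data for this difference over 20694 genes, 73% of genes changed 4-fold and 11% of those changed 2-fold were recovered, 0 with the wrong sign, with 4 false calls. The simulation changed 100 genes of each size, all of at least 3 log2 CPM, and gave all other genes equal means in every group. Libraries that stand apart, as in the real data, were not simulated, so recovery in the real data may be lower. A gene not called is therefore not shown to respond alike.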

Additional observations from a re-analysis of the deposited data

Results flagged for a closer look

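The 6 called depot differences are themselves differences in the effect of corticosterone between tissues, tested directly, at 5.73 for Ackr4, 3.32 for mt-Tl1, 2.31 for Gpx8, −1.57 for Tshr, −1.64 for Zdhhc7 and −2.26 for Fance on the log2 scale.

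Single libraries lay far from the rest of their group in 11 of 72 groups looked at, where chance gives about 1 in 20. Among the called genes, Fance reached 41.45 CPM in library 4 of goWAT Ctrl (next 20.25) and 8.938 CPM in library 3 of scWAT Ctrl, and Tshr reached 245.3 CPM in library 1 of scWAT GC. For gene lists, given as mean log2 CPM, the brown and beige genes stood at 4.754 in library 1 of goWAT GC (next 1.978) and at 2.053 in library 4 of scWAT GC. Epididymis genes stood at 2.479 in library 5 of goWAT GC. Skeletal muscle genes stood at 3.441 in library 2 of goWAT GC, 6.242 in library 2 of scWAT GC and 4.22 in library 1 of scWAT Ctrl. MHC class II genes stood at 4.479 in library 4 of scWAT Ctrl, and progenitor and fibroblast genes at 4.856 in library 2 of scWAT GC. Whether these libraries hold other cells was not tested.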

How the results depend on the processing

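The sign of the depot difference of the 6 called genes was kept in all settings that tested them, with ranges of 4.71 to 6.35 for Ackr4, −2.62 to −1.88 for Fance, 2.00 to 2.50 for Gpx8, −1.90 to −1.37 for Tshr, −2.07 to −1.47 for Zdhhc7 and 2.95 to 3.68 for mt-Tl1, while edgeR adjusted p went up to 0.287. The number of called differences, 6, was 14 with scaling by total count alone (1 higher and 13 lower, with the median of all genes at −0.37), 182 with DESeq2 (101 higher and 81 lower, among them all 6), 6 with limma and voom (mt-Tl1 the shared one), 1 (not among the 6) without libraries 2 and 4 of goWAT GC, and 0 in 4 other settings. These were the 22 °C libraries alone (1689 at an unadjusted p under 0.05), all 3 depots in 1 fit (2301), no libraries 2 and 3 of scWAT GC (2102) and no library 5 of goWAT GC (2922). Leaving out 1 library at a time gave 0 to 19. The calls within goWAT, 1386, became 2186 with DESeq2, 751 with the 22 °C libraries alone, 632 without libraries 2 and 4 of goWAT GC, and 625 to 1977 with 1 library left out. Those within scWAT, 1705, became 979 with the 22 °C libraries alone, 1120 with all 3 depots, 2511 with voom, 762 without libraries 2 and 3 of scWAT GC, 822 when library 1 of goWAT GC was left out as well (an alternative chosen after seeing the data), and 891 to 2188 with 1 library left out. With total count alone, calls split 410 higher and 846 lower in goWAT and 1552 and 424 in scWAT. Causes were not tested. Same-numbered libraries of both depots correlated at −0.277 to 0.431 over 9 pairs (median 0.108, against −0.03 for other numbers), 5 of them over 0.1, and 8 of 18 libraries correlated best with their own number. Not every pair passed 0.1, so the samples were not treated as paired, although the labels leave it unknown. With the number as a replicate block, 0 differences were called (2359 at an unadjusted p under 0.05), and 0 with the block within treatment and temperature (2250). Over 49 named genes and all settings, 1458 results kept sign and side of the threshold, 134 lost their call, 1 gained one, and 69, in 14 genes that were not called, changed sign without a call on either side. Only the 6 called genes could lose a call, and the 1458 belong mostly to the other genes. With the main fit counted, Ackr4 was called in 17 of 34 settings, Fance in 16 of 35 and Zdhhc7 in 13 of 35. Tshr was called in 10 of 35, Gpx8 in 9 of 35 and mt-Tl1 in 8 of 33. With 4 or 5 libraries per group, differences of 2-fold were mostly beyond detection.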
